A study of Homo sapiens with 17 samples.

Results

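Long H3K27me3 canyons are stretches of 500 kb or more in which senescent IMR90 fibroblasts were listed as having less trimethylation of lysine 27 on histone H3 than proliferating cells. They were chosen by their listed length from the H3K27me3 canyon list, on chromosomes 1 to 22. Of the 1374 canyons in the list, 448 met the rule, which is 32.8% of the 1364 autosomal canyons left after an overlapping pair on chromosome 8 was joined. That pair joined to 125 kb and was not a member, and 3 canyons of 500 kb or more on chromosome X were outside the rule. The 448 members held 91.3% of autosomal canyon base pairs and spanned 908 Mb, or 32.5% of the 2789 Mb that the lists span on the autosomes.

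The study mapped chromatin by ChIP-seq (sequencing of DNA immunoprecipitated with a protein or histone mark) in IMR90, a line of human lung fibroblasts, with 17 libraries in 11 groups. Replicative senescence was represented by cells at population doubling 87 that stayed 2 weeks in the dish, against proliferating cells at doubling 24. The H3K27me3 libraries numbered 4 from proliferating and 2 from senescent cells, beside 2 libraries against histone H3 and 1 against H3K4me3 from each of these states, and 1 library against lamin B1 from proliferating cells. Oncogene-induced senescence was represented at doubling 15 by cells in which an ER:Ras fusion, introduced by retrovirus, was switched on with 100 nM 4-hydroxytamoxifen, against control cells at doubling 15, with 1 library each against H3 and H3K4me3. No H3K27me3 library of the Ras experiment was used here, so every canyon belongs to replicative senescence only.

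H3K27me3 is deposited by the Polycomb complex PRC2, whose catalytic subunits are EZH2 and EZH1, and is a mark of gene repression. Lamina-associated domains (LADs) are long, mostly gene-poor stretches of chromatin that touch the lamina under the nuclear envelope, a meshwork of lamin filaments that includes lamin B1. Senescence is a stable arrest of the cell cycle that fibroblasts enter after many divisions or after an oncogene is switched on, and lamin B1 is known to fall in it. H3K4me3 is a mark of active promoters, which in most cells forms narrow peaks.

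Canyons were compared with LADs of proliferating cells and with broad gains of H3K4me3, called mesas, in replicative and in Ras-induced senescence. That canyons are losses and mesas gains follows the study's usage, and of the headers in the files 1 alone, that of the replicative H3K4me3 list, gives a direction. The lists give a chromosome, a start and an end for each region and no value per library, so the depth behind a region is unknown, no error between cultures can be given and no test was run. Errors below are standard deviations over 22 autosomes, which describe variation along the genome and not between cultures. All coordinates are on build hg18.

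The lengths of the members are a description, since length chose them. The shortest spanned 502 kb, the median 1310 kb (quartiles 828 and 2170 kb) and the longest 18.5 Mb. The distribution was uneven: 31 canyons of 5 Mb or more held 29.4% of the members' base pairs, and the longest 45 held 36.6%. Just inside the threshold lay chr15:63428801-63930899 (502 kb), with no LAD and no H3K4me3 mesa, and chr7:54889301-55393499 (504 kb), with 20.5% of its base pairs in LADs and 82.6% under Ras-induced mesas. The third, chr22:25317801-25823299 (505 kb), held 1 whole LAD and was 93.8% under replicative and 88.9% under Ras-induced mesas. Just outside lay chr11:34352001-34851499 (499 kb) and chr2:54312601-54802799 (490 kb), which met neither a LAD nor a mesa, and chr5:42934601-43430999 (496 kb), with 59.7% in LADs. The LAD share of these 6 canyons ran from 0 to 37.6% inside the threshold and from 0 to 59.7% outside it.

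Long canyons lay less in LADs than the rest of the genome, yet few avoided LADs. Of their base pairs, 39.9% were inside LADs, with a mean of 36.8 ± 13.5% over autosomes. Outside them, 71.5% of the autosomal span was in LADs (71.3 ± 5.10%). The share was lower inside the canyons on 21 of 22 autosomes. The exception was chromosome 19, where 73.0% of canyon base pairs and 69.9% of the rest lay in LADs. Counted the other way, long canyons covered 50.5% of the base pairs between LADs and 21.2% of those in LADs.

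The LAD content of single canyons spread over the whole range. The median canyon had 31.0% of its base pairs in LADs, with quartiles of 14.7 and 56.0% and a 10th to 90th percentile range of 2.39 to 71.7%. At the ends of the range, 35 canyons met no LAD and 7 lay whole inside 1 LAD. Counting these, 76 canyons were under 10% in LADs and 142 were over 50%. Length and LAD share had almost no linear or rank correlation over the 448 canyons (Pearson r = 0.031, Spearman rho = -0.0022, given as a description, since neighbouring canyons are not independent). The 31 canyons of 5 Mb or more were nevertheless richer in LADs, with a median share of 51.9%. Length and the number of whole LADs held went together (r = 0.80, rho = 0.62), and a longer canyon has more room for them.

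**Figure D1:**
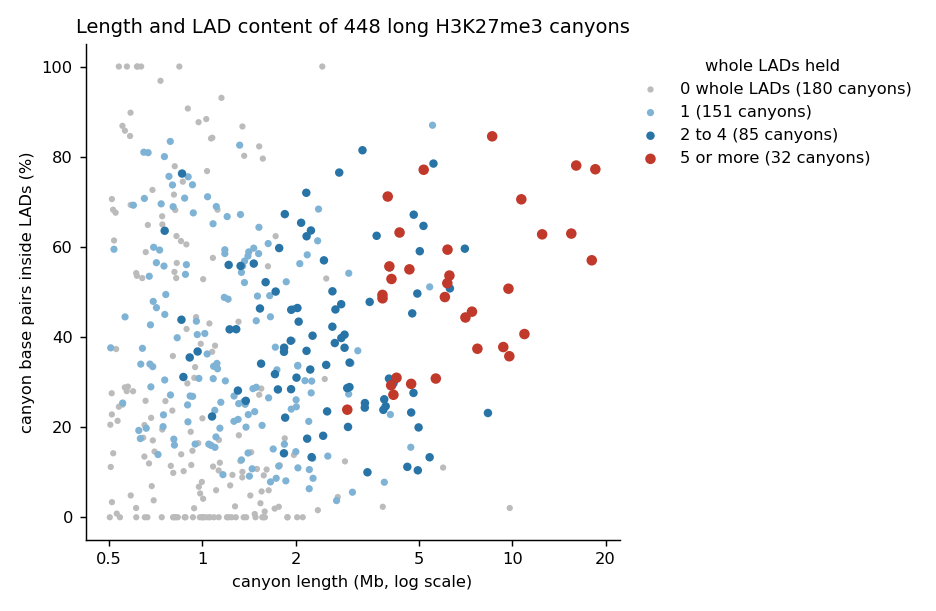
Each point is 1 of the 448 long canyons, placed by its length in Mb on a log scale and by the percentage of its base pairs inside LADs, and coloured by the number of whole LADs it holds. The points fill the range from 0 to 100% at short lengths, and the 32 canyons with 5 or more whole LADs lie at the long end.

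Middle-sized canyons, of 50 kb to under 500 kb, gave the nearest comparison. Some of them lie at most 10 kb from a long canyon, so the 2 classes are not fully separate. The 382 of them had 45.3% of base pairs in LADs (44.8 ± 15.1% over autosomes). Long canyons were lower by a difference of -5.37 percentage points, and lower on 16 of 22 autosomes. With autosomes weighted equally, the means were 36.8% in long and 44.8% in middle-sized canyons. Both classes come from the same autosomes, and the difference taken within each autosome had an SD of 14.1 points. The 2 classes thus did not differ in LAD content beyond that spread, which is no test of the difference.

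Long canyons held more LADs whole than they cut when LADs of every length were counted. With LADs of 200 kb or more only, the order turned: 325 lay whole and 340 were cut. Of 2001 autosomal LADs, 564 (28.2%) lay entirely inside a long canyon. A further 405 (20.2%) were cut by a canyon edge, and 1030 (51.5%) met no long canyon. Whole LADs made up 67.9% of the LAD base pairs in the canyons, cut LADs 30.3% and LADs that enclose a canyon 1.73%. By sequence length, then, most of the LAD content of long canyons came from LADs that were taken up completely.

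By count, most whole LADs lay in a minority of the canyons, and longer canyons have more room for them. At least 1 whole LAD lay in 268 of the 448 canyons. There were 180 canyons with none, 151 with 1, 57 with 2 and 28 with 3 or 4. The 117 canyons with 2 or more held 413 of the 564 whole LADs (73.2%), and the 32 canyons with 5 or more held 206 (36.5%). A canyon that holds several LADs also holds the gaps between them: 627 of 1981 stretches between LADs (31.7%) lay whole inside a long canyon, with a median length of 310 kb beside 300 kb for all such stretches. Of the 639 gaps of 500 kb or more, 363 (56.8%) were at least 50% under long canyons.

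The 5 longest canyons held many whole LADs and were richer in LADs than most. Between 57.0% and 78.0% of each was LAD, beside 31.0% of the median canyon. On chromosome 5, chr5:16593701-35127999 (18.5 Mb) was the longest, and 77.2% of it was LAD. It held 5 whole LADs totalling 14.3 Mb and cut none. One of these, at 21820001 to 30800000, was the longest autosomal LAD in the list, at 8980 kb, and alone filled 48.5% of the canyon. The canyon's end on the lower-numbered side ran 203 kb into a replicative H3K4me3 mesa, and 3 Ras-induced mesas totalling 2113 kb lay whole inside it.

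On chromosome 2, chr2:181998801-200048699 (18.0 Mb) held 10 whole LADs, cut 2 and was 57.0% LAD. It contained 1 replicative mesa of 541 kb and 2 Ras-induced mesas of 1505 kb in all. Chromosome 13 carried the next pair. The canyon chr13:78938801-95015699 (16.1 Mb) held 10 whole LADs and was 78.0% LAD, and chr13:59853601-75355999 (15.5 Mb) held 10 and was 62.9% LAD. Neither met a replicative mesa, whereas Ras-induced mesas filled 1309 kb of the former and 1731 kb of the latter. That was 8.14% and 11.2% of the 2 canyons, below the 14.7% of all long canyons and the 15.8% of chromosome 13. The 2 chromosome 13 canyons thus held some listed H3K4me3 gain of the Ras experiment, though little, and none of the replicative list.

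The fifth, chr1:183665001-196147499 (12.5 Mb), held the most whole LADs of any canyon, 12, which totalled 7.46 Mb. LADs made up 62.8% of it, and no H3K4me3 mesa of either set touched it. Canyons abutted it on both sides. Joined across breaks of at most 10 kb, 5 canyons, of which 4 were members, ran from 180959701 to 198288899 on chromosome 1, a stretch of 17.3 Mb of which the 4 members made up 98.9%.

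**Figure D2:**
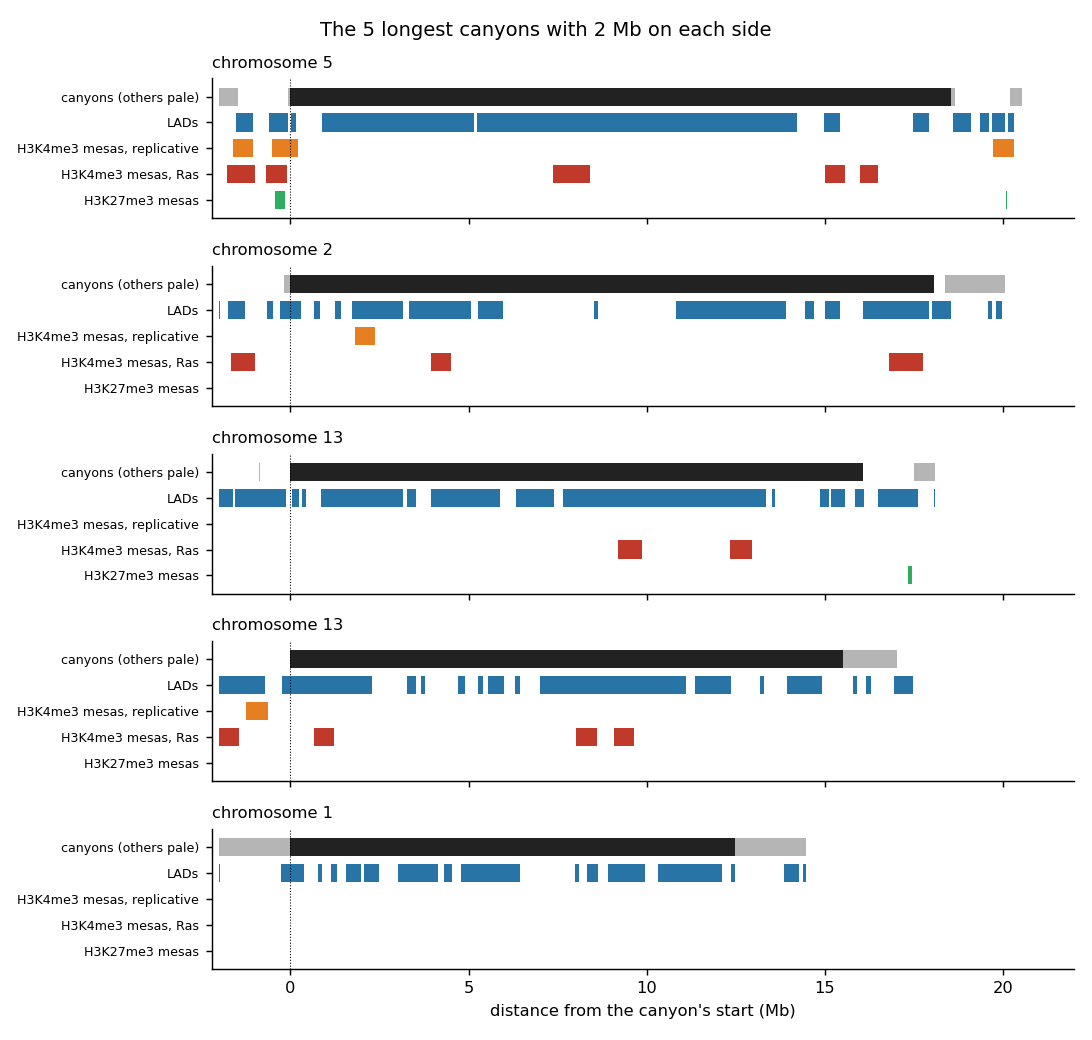
Maps of the 5 longest canyons drawn to scale, with 2 Mb on each side and distance in Mb from the canyon's start. Rows give canyons (the named canyon black, other canyons pale), LADs, replicative H3K4me3 mesas, Ras-induced H3K4me3 mesas and H3K27me3 mesas; the canyons hold 5, 10, 10, 10 and 12 whole LADs from top to bottom, and the chromosome 1 canyon has no mesa in it.

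The LADs taken up whole were mostly short. Their median length was 240 kb (quartiles 150 and 440 kb), against 590 kb (240 and 1338 kb) for LADs that met no long canyon and 620 kb (280 and 1180 kb) for cut LADs. Of the 564, 239 (42.4%) were under 200 kb and 50 (8.87%) were 1 Mb or more, whereas 33.5% of untouched LADs were 1 Mb or more. A canyon can hold only LADs shorter than itself, which bounds these lengths.

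The share of LADs taken up whole fell along the length classes. It was 47.5% of 503 LADs under 200 kb, 36.2% of 572 LADs from 200 to 500 kb and 16.9% of 402 LADs from 500 to 1000 kb. It was 11.8% of 304 LADs of 1 to 2 Mb and 5.82% of 189 LADs of 2 to 5 Mb. The class of 5 Mb or more was small, with 3 of 31 taken up whole (9.68%). Base pairs followed the same order: 56.1% of the base pairs of LADs under 200 kb were under long canyons, and 12.1% of those in LADs of 5 Mb or more.

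A few long LADs nevertheless made up much of what was taken up. LADs of 1 Mb or more were 50 in number and held 41.7% of the base pairs of whole LADs, and they lay in 35 of the canyons. After the chromosome 5 LAD, the longest were on chromosome 13 at 86600001 to 92290000 (5690 kb) and on chromosome 10 at 54060001 to 59640000 (5580 kb). The latter filled 52.2% of its canyon, chr10:51461501-62153299.

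**Figure D3:**
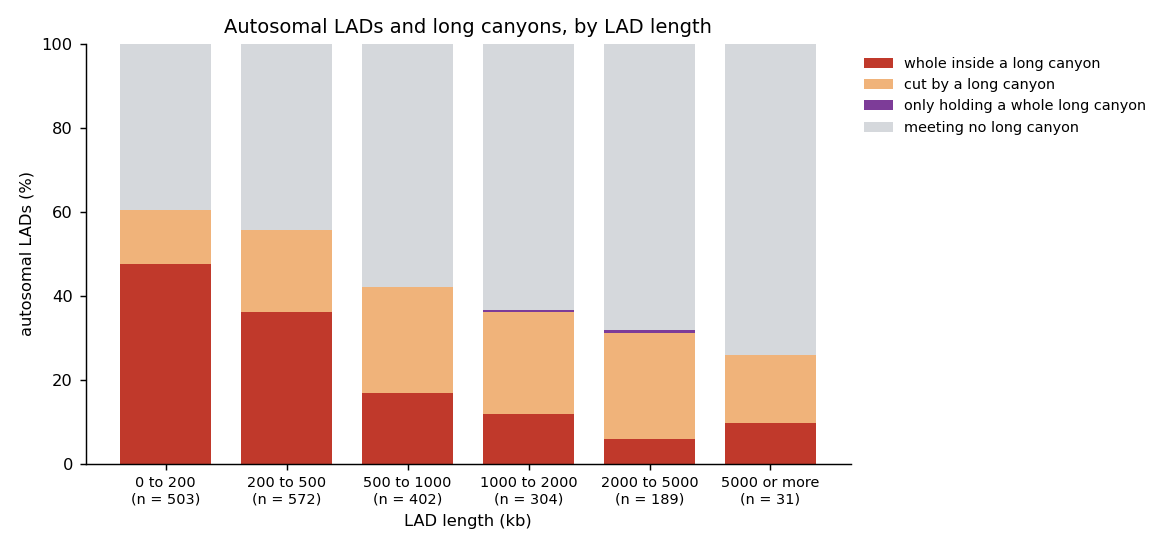
Stacked bars give the percentage of autosomal LADs in each length class (in kb, with the number of LADs) that lie whole inside a long canyon, are cut by one, only hold a whole one, or meet none. The part lying whole inside a canyon goes from 47.5% in the shortest class to 5.82% at 2000 to 5000 kb and 9.68% in the class of 31 LADs above that.

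Cut LADs more often had their smaller part inside the canyon. Canyon edges made 469 cuts in 405 LADs, and 64 LADs were cut by 2 canyons. The part inside the canyon had a median of 139 kb, or 32.7% of the LAD (quartiles 10.3 and 69.9%). In 167 of the 469 cuts, over 50% of the LAD was inside. Of the canyons, 131 cut a LAD at both ends, 207 cut 1 LAD and 110 cut none. LAD content and cutting combined freely: 200 canyons both held a whole LAD and cut another, 68 held without cutting and 138 cut without holding.

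The remainder of a cut LAD, outside the canyon, was 24.0% under H3K27me3 mesas, beside 32.7% of all LAD base pairs outside long canyons. These mesas are the stretches listed as having gained the mark. A single LAD could therefore carry loss at one end and gain elsewhere. No canyon among the 448 touched an H3K27me3 mesa. Both sets come from the contrast that defined the canyons, so this is a description and nothing is read from it. Among middle-sized canyons, a trace of overlap was listed, at 0.0125% of base pairs.

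The 7 canyons lying whole inside a LAD were the reverse case. The longest, chr5:68812801-71248699 (2.44 Mb), filled most of a LAD of 2580 kb that met no mesa of any kind. Next came chr11:57347001-58188899 (842 kb), of which 72.6% was under replicative H3K4me3 mesas and none under Ras-induced mesas. On chromosome 19, chr19:58024701-58658499 (634 kb) lay entirely under a Ras-induced mesa and met no replicative mesa. The enclosing LADs had a median length of 2000 kb, and 5 of the 7 were also cut by another long canyon. A LAD that encloses a long canyon must itself exceed 500 kb, which bounds these lengths.

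The 35 canyons that met no LAD were shorter, with a median of 1042 kb against 1344 kb for the others. The longest were chr6:41821801-43928099 (2.11 Mb), chr11:27238201-29258899 (2.02 Mb) and chr14:67238701-69120399 (1.88 Mb). H3K4me3 mesas reached each of them: Ras-induced mesas covered 12.4%, 26.2% and 5.49% of the 3 in that order. Only on chromosome 11 did a mesa lie whole inside, a Ras-induced one of 529 kb.

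Some long canyons were almost empty of every other list. Stretches over 3 Mb with no LAD or mesa lay in 5 canyons, a feature singled out after the values were seen. In chr16:35143101-44954799 (9.81 Mb), the longest such stretch was 9610 kb, and only 2.06% of the canyon was LAD. Chromosome 16 is known for a large block of heterochromatin beside its centromere that genome builds of this kind represent as a gap in sequence. Whether this canyon lies over that gap, where no read could be placed, was not tested, because no hg18 sequence was at hand. Without it, 40.3% of all long canyon base pairs were in LADs. The next were chr7:76137301-82115799 (5.98 Mb, with an empty stretch of 5320 kb) and chr6:133044201-136862899 (3.82 Mb, 3730 kb).

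H3K4me3 mesas were less common in long canyons than elsewhere, and those of the Ras experiment reached more canyons than the replicative ones. Replicative mesas covered 6.31% of canyon base pairs (7.17 ± 5.48% over autosomes) and 21.0% of the rest of the span (21.6 ± 6.03%), and were lower inside on 21 of 22 autosomes, all but chromosome 21. Ras-induced mesas covered 14.7% (16.6 ± 11.4%) and 28.7% of the rest (30.5 ± 9.01%), and were lower inside on 20 of 22, all but chromosomes 9 and 19. Both differences exceeded the spread between autosomes. Mesas covered more of the middle-sized canyons than of the long ones: 15.2% by replicative mesas (lower in long canyons on 16 of 22 autosomes) and 32.2% by Ras-induced mesas (20 of 22).

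Replicative mesas touched 130 of the 448 canyons (29.0%) and Ras-induced mesas 233 (52.0%). Both sets touched 99 canyons, 31 were touched by replicative mesas only, 134 by Ras-induced mesas only, and 184 (41.1%) by neither. Whole mesas were few. Of 587 autosomal replicative mesas, 42 (7.16%) lay entirely inside a long canyon, in 38 canyons. Of 755 Ras-induced mesas, 86 (11.4%) did, in 71 canyons. The shortest mesas of the 2 lists are 502 and 501 kb, so a canyon near the threshold has almost no room for one. By count, partial overlaps were the rule, as 140 replicative and 265 Ras-induced mesas touched a long canyon. Whole mesas still held 50.4% of the replicative and 44.4% of the Ras-induced mesa base pairs inside the canyons.

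Inside the canyons the 2 H3K4me3 sets shared 30.9 Mb. That is 54.0% of the replicative and 23.2% of the Ras-induced mesa base pairs found there. Outside, the shares were 60.9% and 44.5%. Both shares were lower inside the canyons, where the cover of each set was lower as well. The share of one set under the other was 3.67 times the other's cover inside long canyons and 2.12 times outside. This ratio can rise higher where cover is lower, as it is inside, so it does not show more sharing there.

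Mesas inside long canyons also lay less in LADs than other mesas. Of replicative mesa base pairs inside the canyons, 68.6% were in LADs, against 92.2% outside, lower inside on 21 of 22 autosomes. For Ras-induced mesas the values were 50.4% and 85.0%, lower on 22 of 22. Since the canyons themselves hold less LAD than the rest, cover is better read separately within LADs and between them. In the LAD part of the canyons, replicative mesas covered 12.1 ± 11.3% (mean ± SD over 22 autosomes), beside 27.8 ± 8.26% of LAD base pairs outside canyons. Ras-induced mesas covered 20.8 ± 13.6% and 36.4 ± 11.5%. Cover was lower inside on 21 and 20 of 22 autosomes, and both differences exceeded the spread between autosomes. In the part of the canyons outside LADs, replicative cover was 3.78 ± 3.45%, beside 6.29 ± 3.30% of the other base pairs between LADs, and Ras-induced cover was 13.9 ± 9.69% beside 16.3 ± 6.28%. These were lower inside on 16 and 14 of 22, and the differences were within the spread. The mean cover of long canyons by mesas was thus lower both in LADs and between them, and only in LADs by more than this spread. Inside and outside values come from the same autosomes, which the spread does not take into account. It is therefore no test of either difference.

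LADs taken up whole touched mesas less often than LADs that met no long canyon, in each length class compared, though by little among the shortest. Among whole LADs, 55 of 564 (9.75%) touched a replicative mesa and 118 (20.9%) a Ras-induced mesa, beside 366 (35.5%) and 443 (43.0%) of the 1030 untouched LADs. The latter are longer, so length classes are the fairer comparison. Under 200 kb, 4.60% of whole and 9.55% of untouched LADs touched a replicative mesa, and 14.6% and 15.1% a Ras-induced mesa. Among those of 1 Mb or more, 8 of 50 touched a replicative mesa, beside 212 of 345 (61.4%) of untouched LADs that long. For Ras-induced mesas these counts were 13 of 50 and 234 of 345 (67.8%).

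Measured in base pairs, the gap was wide for long LADs and narrow for short ones. For LADs of 1 to 2 Mb, replicative mesas covered 7.32% of the 36 whole LADs and 38.9% of the 193 untouched ones, and Ras-induced mesas covered 9.12% and 41.8%. For LADs of 2 Mb or more, replicative cover was 2.92% over 14 whole LADs and 22.9% over 152 untouched ones, and Ras-induced cover was 9.24% and 35.7%. At 500 to 1000 kb, replicative cover was 20.0% and 33.8%, and Ras-induced cover 26.7% and 35.5%. Under 200 kb, the values were 4.62% and 8.11% for replicative mesas and 11.8% and 14.2% for Ras-induced mesas. The H3K27me3 contrast defined the canyons and not the mesas, but all lists come from the same line and the replicative ones from the same 2 states.

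The canyons with most replicative mesa were chr2:26223101-30221599, with 1515 kb (37.9% of it), chr10:76832301-79518199, with 1494 kb (55.6%), and chr11:119611701-122415199, with 1422 kb (50.7%). Between 30.8% and 47.3% of these 3 canyons was LAD. The chromosome 11 canyon was also 53.8% under Ras-induced mesas, and 694 kb of it was under both sets.

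The canyon with most Ras-induced mesa was chr19:41423201-44707099, with 2430 kb, or 74.0% of its 3.28 Mb. It was 81.4% LAD, and its 1412 kb of replicative mesa lay entirely under the Ras-induced mesas. This one canyon thus combined listed H3K27me3 loss, lamina contact in proliferating cells and H3K4me3 gain in both kinds of senescence over more than 1 Mb. The next were the chromosome 5 canyon described above and chr3:27705701-33763899, with 2015 kb (33.3%) and 7 whole LADs.

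The longest replicative mesas lying whole in a canyon were chr2:65445001-66490999 (1046 kb), chr12:92870001-93880999 (1011 kb) and chr21:38142001-39150999 (1009 kb). Ras-induced mesas covered 93.0%, 93.3% and 88.7% of them in that order. The longest Ras-induced ones were chr19:41522001-43242999 (1721 kb), chr11:119836001-121256999 (1421 kb) and chr17:14048001-15369999 (1322 kb), with replicative mesas over 82.0%, 42.7% and 52.0%. Of the 42 whole replicative mesas, 34 were at least 50% in LADs and 2 met no LAD. Of the 86 whole Ras-induced mesas, 49 were at least 50% in LADs and 15 met none.

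Longer canyons had proportionally less H3K4me3 mesa, while their density of whole LADs showed no steady order. Replicative mesas covered 9.63% of the 161 canyons under 1 Mb, 7.65% of the 158 of 1 to 2 Mb, 6.61% of the 98 of 2 to 5 Mb and 3.39% of the 31 of 5 Mb or more. Ras-induced mesas covered 25.1%, 19.0%, 14.2% and 7.12% of the same classes. Whole LADs per Mb of canyon were 0.553, 0.518, 0.726 and 0.622. The LAD share went 39.2%, 30.6%, 34.7% and 53.7%, without a steady order. The share of canyons holding a whole LAD was 37.3%, 57.0%, 90.8% and 93.5%.

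Canyon edges fell into 2 kinds. Of 896 edges, 365 (40.7%) had another canyon at most 10 kb away, and at 250 of these the break was at most 1 kb. Such neighbours adjoined 287 of the 448 canyons, 209 at one edge and 78 at both. Joined across these breaks, the 448 canyons belonged to 335 runs, of which 80 held 2 or more members and 193 members in all. Many long canyons are thus pieces of a longer listed stretch, and their count depends on where the list was broken.

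At the 531 edges with no canyon within 10 kb, 59.3% lay inside a LAD, and 46.0% of the edges beside a neighbouring canyon did, while 61.2% of the autosomal span is LAD. LAD cover rose towards the free edge from inside the canyon, from 35.8% at 200 to 250 kb from it to 57.8% in the last 50 kb. Beyond the edge it was 57.3% in the first 50 kb and 63.3% at 450 to 500 kb. Averaged over these edges, LAD content thus changed most within the last 200 kb of the canyon and little across the edge itself. A like rise inside the canyon, from 30.0% to 43.5%, stood at edges beside a neighbouring canyon, where cover was 40.6% at 450 to 500 kb outside. At free edges, replicative mesas went from 9.17% at 200 to 250 kb inside to 22.3% at 450 to 500 kb outside, and Ras-induced mesas from 19.6% to 28.5%.

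H3K27me3 mesas were sparse just outside the edges. Canyons and these mesas are losses and gains of the same contrast, so low cover beside an edge is partly built in. It is given as a description. The cover of H3K27me3 mesas was 1.15% in the first 50 kb outside a free edge, 12.2% at 200 to 250 kb and 16.7% at 450 to 500 kb. Over the whole autosomal span it was 17.2%. The median distance from a free edge to the next H3K27me3 mesa was 565 kb, and 408 of 525 free edges with a canyon and a mesa beyond them (77.7%) met a mesa before another canyon. Free edges were picked for having no canyon close by, which raises that share. Over all 889 such edges of both kinds it was 45.9%. From edges beside a neighbouring canyon that distance was 2088 kb.

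**Figure D4:**
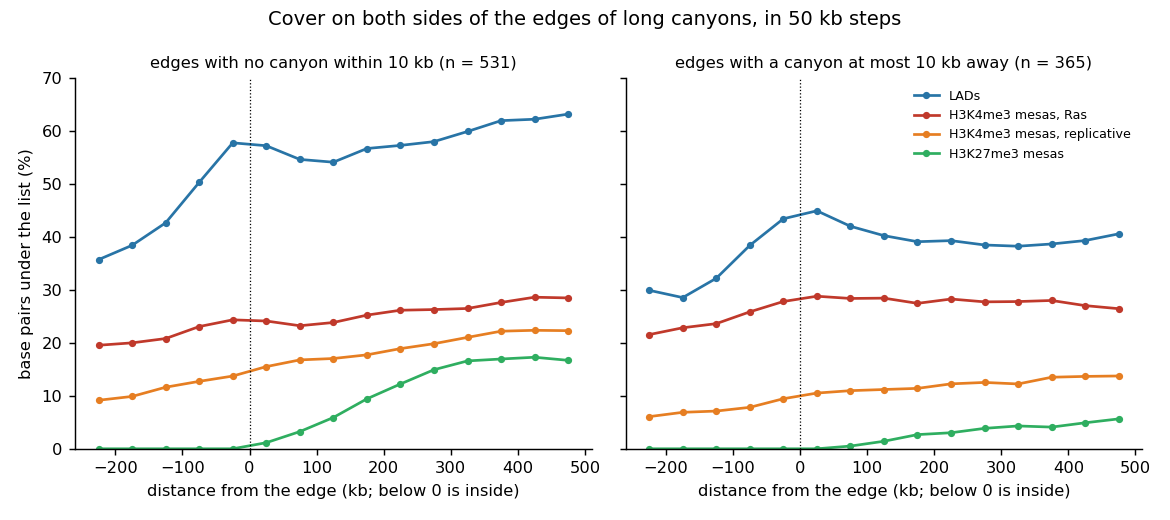
Percentage of base pairs under LADs, H3K4me3 mesas and H3K27me3 mesas in 50 kb steps from 250 kb inside to 500 kb outside a canyon edge (0 on the horizontal axis), for the 531 edges with no canyon within 10 kb (left) and the 365 edges with one (right). On the left, LAD cover goes from 35.8% to 57.8% inside the edge, and H3K27me3 mesas start at 1.15% just outside and level off near 17.0%.

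Long canyons lay on all 22 autosomes, in number with the size of the chromosome. The number per autosome ran from 5 on chromosomes 16 and 21 to 44 on chromosome 2, and followed the span (r = 0.93, rho = 0.90, n = 22 autosomes). There were 1.59 ± 0.380 per 10 Mb, from 0.564 on chromosome 16 to 2.19 on chromosome 15. Cover varied more than number: 30.6 ± 11.1% of an autosome was under long canyons, from 13.9% on chromosome 20 to 58.2% on chromosome 13. Over autosomes, cover by long canyons was not ordered like cover by LADs (r = -0.19, rho = -0.20), and tended to be lower where H3K27me3 mesas covered more (r = -0.55, rho = -0.42). No long canyon touches an H3K27me3 mesa, so the latter 2 are not separate measures.

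Chromosome 13 stood at one end. Its 19 long canyons took up 34 of 69 LADs whole (49.3%) and covered 50.4% of its LAD base pairs and 70.6% of the base pairs between LADs. On chromosome 16, by contrast, 4 of 57 LADs (7.02%) lay whole in its 5 canyons, and LADs made up 11.6% of them. The canyon with the 9610 kb empty stretch held 56.9% of the canyon base pairs of chromosome 16. Without it, the other 4 covered 8.37% of the chromosome rather than 19.4%, and 24.3% of their base pairs were in LADs.

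Chromosome 19, which is gene-rich, was unlike the others in content. Its 9 long canyons were 73.0% LAD, 63.5% under Ras-induced mesas and 22.3% under replicative mesas, each the highest value over autosomes. The lowest were 11.6% LAD and 5.88% Ras-induced on chromosome 16, and 0.484% replicative on chromosome 18. Chromosome 19 as a whole was 70.4% LAD, 53.2% under Ras-induced mesas and 28.7% under replicative mesas, also each the highest over autosomes. These high values were thus not particular to its canyons, whose replicative cover was below that of the chromosome. The 9 canyons were not alike, as the Ras-induced share ranged from 0 to 100%. With chromosome 19 left out, Ras-induced mesas covered 14.1% of all long canyon base pairs.

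**Figure D5:**
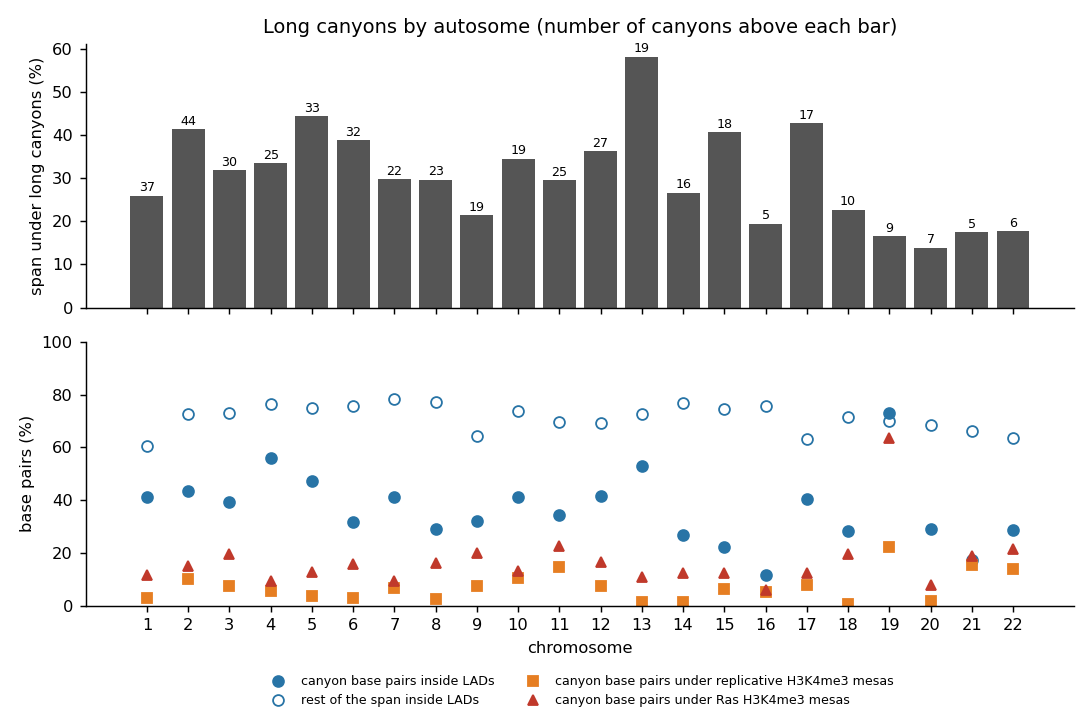
Upper panel: bars give the percentage of each autosome's span under long canyons, with their number above, from 13.9% on chromosome 20 to 58.2% on chromosome 13. Lower panel: points give the percentage of long canyon base pairs in LADs, under replicative and under Ras-induced H3K4me3 mesas, and open circles the percentage of the rest of the span in LADs; chromosome 19 is the 1 autosome where the canyons' LAD share is above that of the rest.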

How the data were processed

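The data used are 5 lists of regions deposited by the authors, whose values are coordinates only (chromosome, start, end; the score column of the LAD list was not used). The alignment used Bowtie 0.12.5 against hg18, per the submitters' processing notes. Which region caller and thresholds made the lists, and whether replicates were pooled, is not given in the sources used here. Starts lie on a grid of 10 kb for LADs, 1 kb for H3K4me3 mesas and 0.1 kb for canyons.

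From these lists, shared base pairs and containment were computed with Python 3.11.15, numpy 2.4.6 and scipy 1.17.1, after the interval arithmetic was tested on simulated data. A contact needed 1 bp, and a chromosome's span ran between the outermost coordinates that the lists hold on it. Chromosomes were weighted by base pairs in totals and equally in mean ± SD.

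Named regions were the longest, those with most whole LADs or mesas, and those nearest the threshold. The members and the lists were chosen with earlier results of these data known. With no hg18 annotation, no genes were placed in canyons. Alternatives were other length thresholds, joining of neighbouring canyons or LADs, a minimum LAD length, looser containment, a larger overlap, chromosome X and omission of each autosome.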

Additional observations from a re-analysis of the deposited data

How the results depend on the processing

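Of 221 values recomputed under other settings, 5 moved beyond 1 SD over autosomes (for counts, beyond 1.5 times), 216 did not and 0 reversed. Reversal means a change of sign, which only the difference from middle-sized canyons could show. For all other results, which are counts, shares and lengths, the 0 was fixed in advance. Of the 216, 154 came from leaving out 1 autosome. That can hardly move a pooled value by an SD over autosomes, so these 154 say little about stability. Joining LADs at most 50 kb apart joined none, since the smallest gap is 60 kb, so 8 of the 216 carry no information. With canyons at most 10 kb or 100 kb apart joined before the threshold, the canyons lying whole inside 1 LAD went from 7 to 4 and 3. With LADs of 200 kb or more only, whole LADs went from 564 to 325, their median length from 240 to 390 kb, and canyons holding one from 268 to 178. Cut LADs went from 405 to 340 under that setting, so they outnumbered whole ones. Joining at 10 kb gave 345 long canyons in place of 448, of which 10 contained no member, and 641 whole LADs. With each autosome left out in turn, the LAD share ranged from 38.7 to 40.6%, the cover of the span from 31.6 to 33.2%, the median length of whole LADs from 230 to 240 kb, replicative cover from 5.85 to 6.63%, Ras-induced cover from 14.1 to 15.1%, edges in LADs from 53.0 to 54.5% and the difference from middle-sized canyons from -7.12 to -3.57 points. With a threshold of 1 Mb that difference was -1.61 rather than -5.37 points, inside its SD over autosomes of 14.1. Omission of the chromosome 16 canyon and 3 values under the 10 kb join (cover of the fullest chromosome, median length of whole LADs, edges in LADs) were added after seeing the data. No paired analysis was possible because the lists hold no value per sample. Depth is unknown, and the span includes gaps in the assembly.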

Other observations

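Neighbouring long canyons were often close without touching. Of 426 pairs of neighbours on the same chromosome, 70 were at most 10 kb apart, 97 at most 100 kb and 147 at most 500 kb, with a median distance of 1483 kb. In the breaks of at most 500 kb, 45.4% of base pairs were LAD, 31.7% were under Ras-induced H3K4me3 mesas, 21.3% under replicative H3K4me3 mesas and 3.74% under H3K27me3 mesas.

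Along the length of the canyons, divided into 10 equal parts, LAD cover was 44.8% and 44.2% in the outermost parts and between 34.8% and 41.4% in the 8 parts between them. Ras-induced mesas covered 18.7% and 17.4% of the outermost parts and from 12.6% to 15.8% of the others. Replicative mesas covered 9.66% of the part with the lowest coordinates and 6.59% of the opposite one.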
